A study of Mus musculus with 8 samples.

Results

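The homeobox genes of dental mesenchyme were compared between control and *Tgfbr2*-deleted dental pulp. The members are 38 mouse genes picked by symbol, which code for homeodomain transcription factors known from tooth and jaw mesenchyme and for their cofactors and relatives. Each symbol was looked up by Ensembl identifier in the table of 12148 genes, and 34 of the 38 were found. *Isl1*, *Alx4*, *Meis1* and *Meis2* were not among them and are not analysed here. A gene is in the table only if the authors' filter for reliable quantification kept it, so the 34 are the members that passed that filter.

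Dental pulp RNA was taken from first molars of C57BL/6J mice at postnatal day 7 (P7) and sequenced in 8 libraries, 4 per genotype. Both genotypes carry Osterix-Cre, a Cre recombinase driven by the Osterix promoter, which is active in odontoblasts and in scattered cells of the pulp mesenchyme but not in all cells of the tissue. Osterix-Cre mice without the floxed allele were the controls, and the *Tgfbr2cko* mice are Osterix-Cre:Tgfbr2f/f, in which the recombinase deletes *Tgfbr2*, the type II receptor for TGFβ. Left and right molars were combined, and the pulp had been freed from the enamel organ and the hard tissue. The deposited values are log2 CPM, that is reads scaled to a common library size, called log2 values below. They are not divided by gene length, so levels of different genes are compared only after subtracting the log2 of the summed exon length in kb (level per kb). The control libraries carry the label numbers 49 to 52 and the mutant libraries 53 to 56, and values of single libraries are given in that order.

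Homeodomain proteins bind short AT-rich DNA sites, and combinations of them divide the jaw mesenchyme into regions that form incisors or molars. MSX1 and PAX9 are needed in the mesenchyme for a tooth germ to pass the bud stage, DLX proteins pattern the upper and lower jaw, and BARX1 is tied to molar rather than incisor shape. Several members also meet the TGFβ pathway at the protein level, since TGIF1 and ZEB2 bind SMAD proteins, the transcription factors that carry the signal from the receptor to the nucleus.

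Between 8682872 and 13539670 reads per library fell on the 12148 genes, so that 1 read was worth 0.0739 to 0.115 CPM. The deleted gene, *Tgfbr2*, had log2 values of 7.16, 7.62, 7.64 and 7.52 in libraries 49 to 52 and of 7.02, 7.00, 7.16 and 7.61 in libraries 53 to 56, a log2 fold change of -0.29 (limma-trend, adjusted p = 0.790). The library labelled *Tgfbr2cko* 56 thus lay inside the control range for the targeted gene, and the library labelled *Tgfbr2cko* 55 lay at its lower edge, level with control library 49. Genotypes are given below as labelled. Library 56 also stood apart in its enamel transcripts, since *Amelx* and *Ambn*, the genes of the main enamel matrix proteins, took 18.5% of its reads against 0.326% to 2.74% in the other 7 libraries. The log2 values are scaled to all reads of a library, so these enamel reads leave a smaller share for the other genes of library 56. Low values of single genes in library 56 are to be read with this limit, and its size was not tested.

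Among the members, 1 gene fell and 2 genes rose in *Tgfbr2cko* pulp. *Lhx8*, which codes for a LIM-homeodomain factor of the jaw mesenchyme, was 1.73-fold lower. *Pitx1*, a paired-type factor of the hindlimb, the mandible and the oral and dental epithelium, was 2.07-fold higher, and *Satb1*, a chromatin organizer with a homeodomain, was 1.59-fold higher. Without library 56 the log2 fold changes of *Pitx1* and *Satb1* went from 1.05 to 0.49 and from 0.67 to 0.42, and *Lhx8* was then the 1 member that met the criterion given next. These 3 of 34 (8.82%) met the study's criterion for an altered transcript, an unadjusted p under 0.05 with a change of at least 1.5-fold. Over all genes 5.77% met it, with 2.12% higher and 3.65% lower in the mutants. *Lhx8* was also the single member with a Benjamini-Hochberg adjusted p under 0.05, which 0.947% of all genes had. The typical size of a member's difference was that of any gene, with a median absolute log2 fold change of 0.15 over the members and 0.14 over all genes. Fold changes were positive for 16 members and negative for 18.

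**Figure D1:**
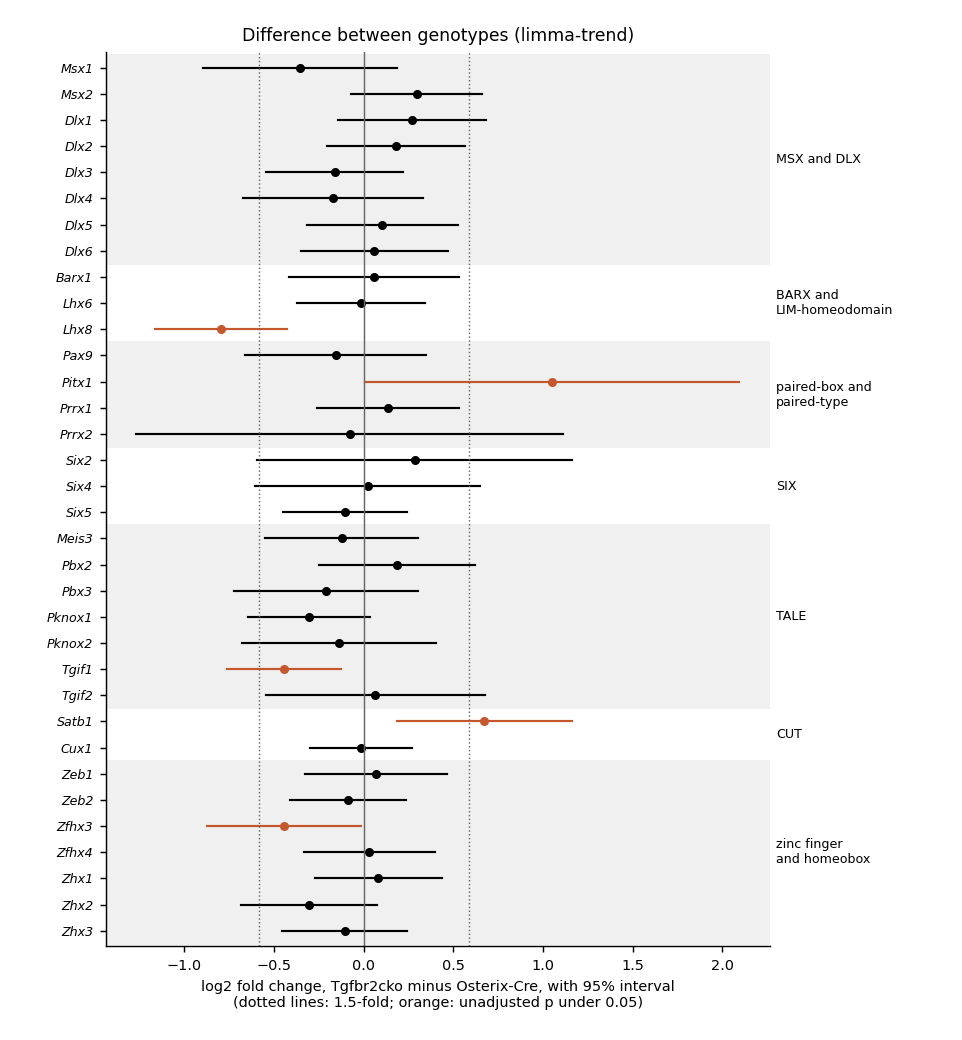
Log2 fold change of each of the 34 members, *Tgfbr2cko* minus Osterix-Cre, with its 95% interval from limma-trend (4 libraries per genotype, members grouped by structural family). Dotted lines mark 1.5-fold, and the 5 members in orange had an unadjusted p under 0.05: *Lhx8*, *Tgif1* and *Zfhx3* to the left of 0, *Pitx1* and *Satb1* to the right.

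Levels per kb in the controls were highest for *Msx1*, *Msx2*, *Barx1*, *Dlx2*, *Dlx3*, *Dlx4* and *Dlx5*. The other *Dlx* genes ranked lower, *Dlx6* at rank 13 with 3.41 ± 0.33 and *Dlx1* at rank 17 with 2.70 ± 0.33 (SD, n = 4). *Msx1* was the highest at 7.82 ± 0.23 (SD, n = 4), above 98.6% of all genes. It was followed by *Msx2* at 7.43 ± 0.14, *Dlx3* at 7.31 ± 0.27, *Barx1* at 7.00 ± 0.19, *Dlx5* at 6.31 ± 0.38, *Dlx4* at 5.93 ± 0.31 and *Dlx2* at 5.01 ± 0.34 (all SD, n = 4). The median of all genes was 2.70, with 17 members above it and 17 below, and 6 members lay above 90% of all genes. Most neighbours in this order could not be separated. Of the 33 steps from one member to the next, the values of the 4 control libraries were free of overlap at 3 only, between *Barx1* and *Dlx5*, between *Dlx4* and *Dlx2*, and between *Dlx2* and *Meis3*. At the low end lay *Six4* at -0.38 ± 0.20 and *Pknox2* at -0.53 ± 0.13 (SD, n = 4), which were still counted with 67 to 123 and 50 to 84 reads per library.

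**Figure D2:**
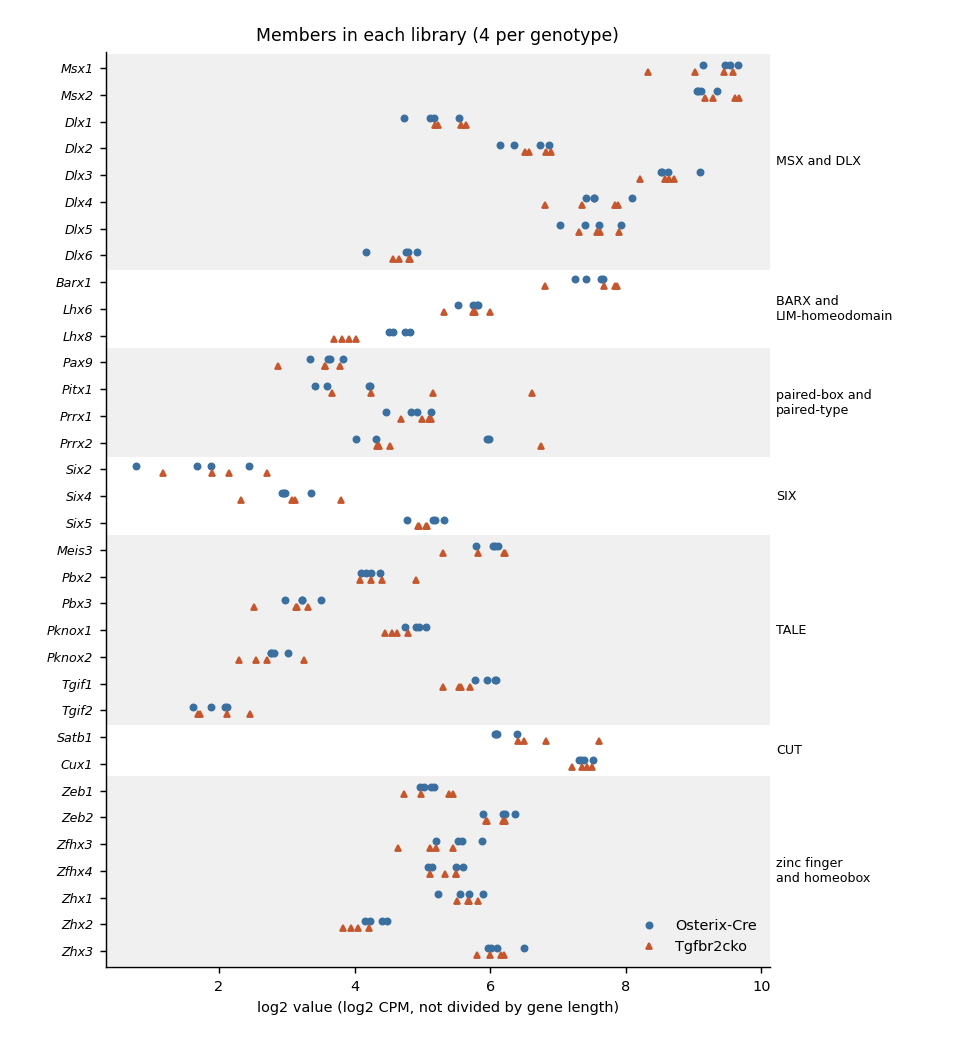
Log2 value (log2 CPM, not divided by gene length) of the 34 members in each of the 8 libraries, with circles for Osterix-Cre and triangles for *Tgfbr2cko*. In *Lhx8*, *Tgif1* and *Satb1* the symbols of the genotypes do not overlap, and the widest spreads within a genotype are those of *Pitx1* in the mutants, from 3.66 to 6.61, and *Prrx2* in both.

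The MSX and DLX factors had the highest median level per kb of the families, 6.12, and of these 8 genes none was altered or had an unadjusted p under 0.05. Over all genes 5.77% were altered and 8.38% had such a p. The lack of a call among 8 genes, or in the smaller families below, therefore says little about a family. *Msx1* (chromosome 5, 37820485 to 37824583 of GRCm38, minus strand) had log2 values of 9.13, 9.53, 9.66 and 9.46 in the controls and of 9.03, 9.45, 9.58 and 8.32 in the mutants. Library 56 was the lowest, library 53 lay just below the control range, and libraries 54 and 55 lay inside it. The log2 fold change was -0.35 (95% interval -0.89 to 0.18, limma-trend, adjusted p = 0.859), and -0.10 without library 56. *Msx2*, which acts in enamel, bone and hair as well as in the pulp, had values of 9.11, 9.34, 9.05 and 9.07 in the controls and of 9.29, 9.68, 9.61 and 9.16 in the mutants. The genotypes overlapped, with the mutant libraries 54 and 55 above all controls. Its log2 fold change of 0.29 (95% interval -0.07 to 0.66) did not pass the test (limma-trend, adjusted p = 0.760), and without library 56 it was 0.39 with an unadjusted p under 0.05 (adjusted p = 0.41).

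*Msx1* and *Msx2* code for closely related repressors that partly replace each other in the mouse. Their means differed in opposite directions, and their difference within a library, looked at after those means were seen, is given as a description. *Msx1* minus *Msx2* was 0.03, 0.19, 0.61 and 0.40 in the controls against -0.26, -0.23, -0.03 and -0.85 in the mutants on the log2 scale. The difference was above 0 in each control library and below 0 in each mutant library, with libraries 49 and 55 close to 0. As the genes differ in length, it compares libraries and not the levels of the 2 genes. The means were 0.31 ± 0.25 and -0.34 ± 0.35 (SD, n = 4). All 29 pairs of members that share a root symbol were compared in this way. Besides *Msx1* and *Msx2*, *Lhx6* with *Lhx8* and *Zfhx3* with *Zfhx4* did not overlap between genotypes, and none of the 29 pairs passed after adjustment over them (lowest adjusted exact permutation p = 0.276).

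**Figure D3:**
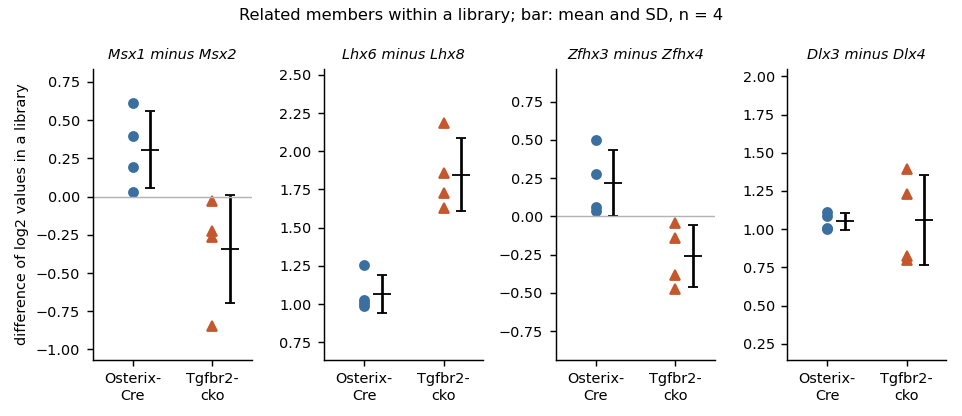
Difference between the log2 values of a pair of related members within each library (points) with the mean and SD of the 4 libraries per genotype (bars); each panel has its own range on the y axis, with the same span. The genotypes do not overlap for *Msx1* minus *Msx2*, *Lhx6* minus *Lhx8* and *Zfhx3* minus *Zfhx4*, and overlap for *Dlx3* minus *Dlx4*, with means of 1.05 and 1.06.

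The 6 *Dlx* genes lie in the genome as 3 pairs on opposite strands, 9426 bases apart for *Dlx1* and *Dlx2* on chromosome 2, 15150 bases for *Dlx3* and *Dlx4* on chromosome 11 and 9236 bases for *Dlx5* and *Dlx6* on chromosome 6. *Dlx1* and *Dlx2* take part in forming the upper molars, *Dlx3* acts in odontoblasts and bone, and *Dlx5* and *Dlx6* give the lower jaw its identity. In each pair 1 gene was far above the other per kb. *Dlx3* exceeded *Dlx4* by 1.13 to 1.72 log2 units per kb over the 8 libraries, *Dlx5* exceeded *Dlx6* by 2.69 to 3.25, and *Dlx1* minus *Dlx2* ran from -3.06 to -1.74. These differences had means of 1.38 and 1.39, of 2.91 and 2.95 and of -2.31 and -2.22 in controls and mutants (exact permutation test, p = 0.97, 0.80 and 0.83). The log2 fold changes of the 6 genes ran from -0.17 for *Dlx4* to 0.27 for *Dlx1*. For 4 of the 8 MSX and DLX factors (*Dlx2*, *Dlx3*, *Dlx5* and *Dlx6*) the 95% interval of the difference lay inside 1.5-fold in both directions. Over the 34 members 15 (44.1%) had such an interval, against 48.2% of all genes, and in the other 19 members the interval reached 1.5-fold or beyond on at least 1 side. *Dlx1*, *Dlx4* and *Dlx6* share 6.21%, 2.42% and 4.38% of their exon bases with an antisense transcript, and the strand setting of the counting is not given in the sources used here.

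BARX1 and the LIM-homeodomain factors LHX6 and LHX8 belong to the oral mesenchyme of the jaws, where BARX1 marks the molar field. *Barx1* had log2 values of 7.41, 7.66, 7.63 and 7.25 in the controls and of 7.84, 7.87, 7.68 and 6.80 in the mutants. Mutant libraries 53, 54 and 55 lay above all controls and library 56 below all of them. The log2 fold change was 0.06 (95% interval -0.41 to 0.53, limma-trend, adjusted p = 0.998) with all libraries and 0.31 without library 56.

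*Lhx8* (ENSMUSG00000096225.7, chromosome 3, 154306294 to 154330659 of GRCm38, minus strand) fell in the mutants. The controls had log2 values of 4.50, 4.56, 4.81 and 4.74 and the mutants of 4.02, 3.81, 3.92 and 3.69, counted with 131 to 273 reads per library. Each mutant library lay below each control library, which 5.27% of all genes showed in either direction and 3 of the 34 members did. With means of 4.66 ± 0.15 and 3.86 ± 0.14 (SD, n = 4), the log2 fold change was -0.79 (95% interval -1.16 to -0.43, limma-trend p = 4.46e-04, adjusted p = 0.0475), and the exact permutation p was 0.0286, the smallest possible. Library 56 was the lowest mutant, and without it the log2 fold change was -0.74 (limma-trend, adjusted p = 0.0642). In the 8 fits that left out a library the change ran from -0.85 to -0.74 with p under 0.05 in each, while the adjusted p ran from 0.0439 to 0.176 and was under 0.05 in 1 of them, the fit without library 53. The libraries are bulk tissue, so fewer cells that express a gene and less RNA per cell cannot be told apart.

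*Lhx6*, the closest relative of *Lhx8* and its partner in forming the molars, did not show this difference. Its log2 values were 5.53, 5.82, 5.80 and 5.75 in Osterix-Cre and 5.75, 5.99, 5.78 and 5.32 in *Tgfbr2cko* pulp. The genotypes overlapped and the log2 fold change was -0.02 (95% interval -0.37 to 0.34, limma-trend, adjusted p = 0.998), an interval that lies inside 1.5-fold. *Lhx6* minus *Lhx8* was 1.03, 1.25, 0.99 and 1.00 in the controls against 1.72, 2.18, 1.86 and 1.63 in the mutants on the log2 scale. This difference within a library was 0.78 larger in the mean of the mutants, a description of a pair picked out for its lack of overlap. Per kb the pair was nearly level in the controls, at 3.46 ± 0.13 for *Lhx6* and 3.32 ± 0.15 for *Lhx8*, and in the mutants stood at 3.44 ± 0.28 and 2.52 ± 0.14 (SD, n = 4).

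**Figure D4:**
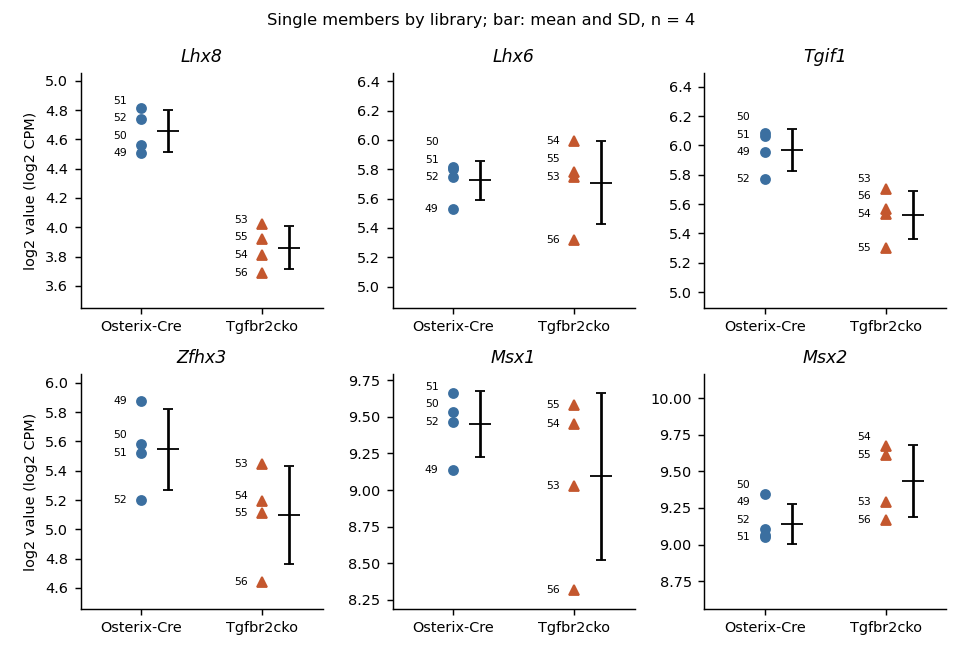
Log2 values of *Lhx8*, *Lhx6*, *Tgif1*, *Zfhx3*, *Msx1* and *Msx2* in each library (points, with the library number) and the mean and SD of the 4 libraries per genotype (bars); each panel has its own range on the y axis, with the same span. The mutant libraries lie below all controls for *Lhx8* and *Tgif1*, overlap the controls for the other 4 genes, and library 56 is the lowest mutant for *Lhx8*, *Lhx6*, *Zfhx3*, *Msx1* and *Msx2*.

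The sequences before the starts of *Lhx8* and *Lhx6* are shown because the genes are close relatives whose values differed between genotypes in one case and not in the other, and that of *Tgif1* because its protein binds SMAD proteins. They are from RefSeq on GRCm38.p6, on the gene's strand, and stop where the GENCODE M21 gene begins. Capitals mark the SMAD box, CAGAC or its reverse complement GTCTG.
*Lhx8*, chr3:154330660-154330810, minus strand: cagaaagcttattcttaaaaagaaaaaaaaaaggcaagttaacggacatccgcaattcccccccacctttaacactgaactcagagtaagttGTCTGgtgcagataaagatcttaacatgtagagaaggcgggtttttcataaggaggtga
*Lhx6*, chr2:36105409-36105658, minus strand: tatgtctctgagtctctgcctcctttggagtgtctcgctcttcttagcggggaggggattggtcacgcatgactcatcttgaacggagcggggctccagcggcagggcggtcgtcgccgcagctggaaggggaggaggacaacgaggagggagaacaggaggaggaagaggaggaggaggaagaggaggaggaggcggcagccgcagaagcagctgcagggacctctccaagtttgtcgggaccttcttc
*Tgif1*, chr17:70853547-70853782, minus strand: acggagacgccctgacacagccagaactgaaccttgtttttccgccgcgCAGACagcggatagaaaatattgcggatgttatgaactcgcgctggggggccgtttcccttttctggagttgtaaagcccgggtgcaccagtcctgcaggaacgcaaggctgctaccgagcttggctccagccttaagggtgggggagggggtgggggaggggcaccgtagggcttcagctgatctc

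The windows differ in composition, with 39.7% G and C in the 151 bases shown for *Lhx8*, 61.6% in the 250 for *Lhx6* and 59.7% in the 236 for *Tgif1*. Over the full 250 bases before the RefSeq start, *Lhx8* and *Tgif1* each held 1 SMAD box, with its first base at -158 and at -201, and *Lhx6* held none. The box is common, being in 42.2% of all 32817 promoters of the table on either strand. Promoters were listed for 22 of the 34 members, and 12 of their 36 promoters (33.3%) held it. The homeodomain core TAATTA, which is its own reverse complement and cannot overlap the SMAD box, was in none of these 3 windows, in 2 of the 36 promoters of the members (5.56%) and in 4.85% of all promoters.

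Of the paired-box and paired-type factors, *Pitx1* rose and *Pax9*, *Prrx1* and *Prrx2* did not pass the test. *Pitx1* (chromosome 13, 55825051 to 55836192 of GRCm38) had log2 values of 4.21, 3.59, 4.23 and 3.42 in the controls and of 3.66, 4.24, 5.15 and 6.61 in the mutants. Library 56 was the highest, library 55 next, and libraries 53 and 54 lay inside the control range or barely above it. A transcript on the opposite strand shares 6.21% of its exon bases. The log2 fold change was 1.05 (95% interval 0.01 to 2.09, limma-trend p = 0.0484, adjusted p = 0.588), and the exact permutation p was 0.114. Without library 56 it was 0.49 and no longer past the unadjusted threshold (adjusted p = 0.752), and without libraries 55 and 56 it was 0.09 (adjusted p = 0.953). The unadjusted p was also over 0.05 without library 49, 50, 52 or 55, at log2 fold changes of 1.17, 0.96, 0.90 and 0.97. It was over 0.05 as well in limma without the trend on mean level, with voom weights, after quantile normalization and after median centring, where the log2 fold change ran from 1.04 to 1.11 and the adjusted p from 0.587 to 0.675.

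*Satb1* (chromosome 17, 51736187 to 51833290 of GRCm38) had log2 values of 6.39, 6.06, 6.10 and 6.09 in the controls and of 6.42, 6.49, 6.83 and 7.60 in the mutants. The genotypes did not overlap, but library 53 exceeded control library 49 by little and library 56 was the highest. Its log2 fold change was 0.67 (95% interval 0.18 to 1.16, limma-trend p = 0.0108, adjusted p = 0.276, exact permutation p = 0.0286). It was 0.42 without library 56 (adjusted p = 0.326), which is under 1.5-fold though still at an unadjusted p under 0.05, and 0.29 without libraries 55 and 56 (adjusted p = 0.656), where the unadjusted p was over 0.05. With library weights it was 0.56 (limma, adjusted p = 0.126), also under 1.5-fold. *Cux1*, the other CUT-family member, had values of 7.31, 7.34, 7.52 and 7.38 in the controls and of 7.35, 7.43, 7.50 and 7.20 in the mutants, with the narrowest 95% interval of the 34 members (log2 fold change -0.02, 95% interval -0.30 to 0.27, limma-trend, adjusted p = 0.998).

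Some genes of the dental epithelium, though not all of those listed, were high in the same mutant libraries as *Pitx1* and *Satb1*. The mean log2 value of the keratin genes *Krt5*, *Krt14* and *Krt17* was 7.25, 6.58, 7.09 and 6.71 in the controls against 6.75, 7.30, 8.68 and 10.36 in the mutants, so that libraries 55 and 56 were again the highest. The mean of the enamel genes *Amelx*, *Ambn* and *Enam* was 12.08, 9.23, 9.65 and 10.21 in the controls against 9.99, 9.27, 12.58 and 15.28 in the mutants. All 15 listed markers of dental epithelium and ameloblasts were found, with none at 0, and their summed level ran from 4305 to 23810 CPM in the controls and from 4684 to 197900 CPM in the mutants. Of the 15, 9 had a positive and 6 a negative log2 fold change. *Krt17*, *Cdh1* and *Cldn1*, which code for a keratin and for proteins of epithelial cell contacts, rose by the criterion used for the members, and *Klk4*, an enamel protease that odontoblasts also make, fell. *Krt17* had log2 values of 7.13, 6.51, 6.87 and 6.42 in the controls and of 6.83, 7.54, 8.74 and 10.52 in the mutants. *Cdh1* had 3.88, 3.97, 4.59 and 4.08 against 3.97, 4.51, 5.56 and 7.06, and *Cldn1* had 3.83, 1.92, 3.04 and 2.70 against 2.82, 3.77, 4.90 and 8.23. Library 56 was the highest and library 55 the next for each of the 3. Their log2 fold changes of 1.67, 1.15 and 2.05 became 0.97, 0.55 and 0.96 without library 56 (limma-trend, adjusted p = 0.295, 0.677 and 0.581), and *Krt17* alone of the 3 then kept an unadjusted p under 0.05. *Klk4* had log2 values of 7.78, 7.26, 7.43 and 7.71 in the controls and of 4.20, 4.53, 5.22 and 5.39 in the mutants (log2 fold change -2.71, limma-trend, adjusted p = 1.36e-04), so that each mutant library lay below each control. *Mmp20*, *Amtn*, *Odam*, *Epcam* and *Sp6* were the other 5 with a negative log2 fold change, from -0.89 to -0.27, and none of them passed the test (limma-trend, lowest adjusted p = 0.945). With the enamel mean as a covariate, the log2 fold change of *Pitx1* was 0.46 (limma-trend, adjusted p = 0.702) with an unadjusted p over 0.05, while that of *Satb1* was 0.41 (adjusted p = 0.269), under 1.5-fold but still with an unadjusted p under 0.05. With the keratin mean as a covariate, added after its values were seen, the log2 fold change of *Pitx1* was -0.05 (limma-trend, adjusted p = 0.946) and that of *Satb1* 0.22 (adjusted p = 0.644), neither with an unadjusted p under 0.05. The same fit gave -0.70 for *Lhx8*, with an unadjusted p under 0.05 (adjusted p = 0.152). The keratin mean was itself highest in mutant libraries 55 and 56, so this covariate carries part of the difference between genotypes. The fit therefore cannot tell genotype and keratin level apart for *Pitx1* and *Satb1*, which were highest in the same libraries. The part of the epithelial transcripts in the values of *Pitx1* and *Satb1* was not tested.

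**Figure D5:**
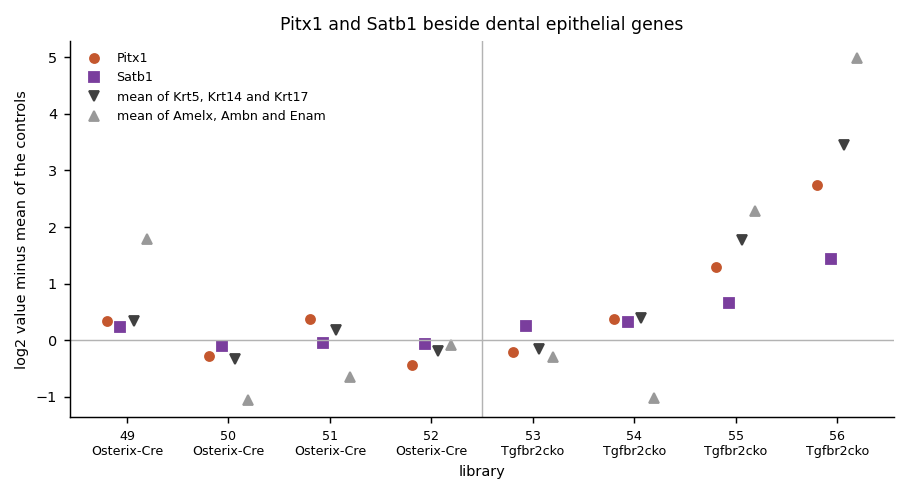
Log2 value minus the mean of the 4 controls, for *Pitx1*, *Satb1* and the means of 3 keratin and 3 enamel matrix genes in each library (library number and genotype on the x axis). In library 56 all 4 lie above every other library, and in library 55 all 4 lie above every control; in libraries 53 and 54 *Pitx1* and the keratins lie inside the control range or barely above it.

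*Pax9*, which acts with *Msx1* to keep *Bmp4* on in the tooth bud mesenchyme, had a log2 fold change of -0.16 (95% interval -0.66 to 0.35, limma-trend, adjusted p = 0.995), with 98 to 145 reads per library. Its values ran from 3.34 to 3.83 in the controls and from 2.86 to 3.79 in the mutants. *Prrx1* and *Prrx2*, factors of limb and jaw mesenchyme, differed in how they varied. *Prrx1* stayed between 4.46 and 5.13 in all 8 libraries (log2 fold change 0.14, limma-trend, adjusted p = 0.989). *Prrx2*, per kb the highest of the 4 found in this family, had log2 values of 5.97, 5.96, 4.31 and 4.02 in the controls and of 6.74, 4.33, 4.51 and 4.35 in the mutants. Libraries 49, 50 and 53 were high and the other 5 were low, in both genotypes, with 165 to 950 reads. The SD of 1.05 and 1.17 (n = 4) within the genotypes was far larger than the log2 fold change of -0.08 (95% interval -1.27 to 1.11, limma-trend, adjusted p = 0.998), so that this gene could not be compared with useful precision.

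*Six2*, *Six4* and *Six5* code for factors of muscle, kidney and sense organs as well as of craniofacial mesenchyme, and none of these 3 was altered or had an unadjusted p under 0.05. *Six5*, the highest of them per kb, had log2 values of 5.32, 5.18, 5.15 and 4.78 in the controls and of 5.05, 5.07, 4.94 and 4.95 in the mutants. The mutant values lay inside the control range, and the log2 fold change was -0.11 (95% interval -0.45 to 0.24, limma-trend, adjusted p = 0.995). *Six2*, at 17 to 88 reads, and *Six4* had log2 fold changes of 0.28 and 0.02 with intervals that reached beyond 1.5-fold on both sides.

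Of the TALE factors, whose homeodomain has extra residues in a loop, 7 were found and none was altered. *Tgif1* (ENSMUSG00000047407.17, chromosome 17, 70844205 to 70853546 of GRCm38) codes for a repressor that binds SMAD2 and SMAD3. It had log2 values of 5.95, 6.08, 6.07 and 5.77 in the controls and of 5.70, 5.53, 5.30 and 5.57 in the mutants. Each mutant library lay below each control, with library 53 and control library 52 closest. The log2 fold change of -0.44 (95% interval -0.76 to -0.13, limma-trend p = 0.00981, exact permutation p = 0.0286) was 1.36-fold, short of 1.5-fold, and its adjusted p was 0.262. In the 8 fits without a library it ran from -0.51 to -0.37 with p under 0.05 in each, but without both libraries 55 and 56 it was -0.35 with an unadjusted p over 0.05 (adjusted p = 0.583). *Tgif2*, its relative, had a log2 fold change of 0.07 (95% interval -0.55 to 0.68) on 28 to 58 reads. As 56.7% of its exon bases are shared with a transcript on the opposite strand, its reads may not all be its own.

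*Meis3* was the most abundant TALE factor per kb. Its log2 values were 6.11, 6.08, 6.04 and 5.80 in the controls against 6.22, 6.20, 5.82 and 5.30 in the mutants, with libraries 53 and 54 above all controls and library 56 below them. The log2 fold change of -0.12 (95% interval -0.55 to 0.30, limma-trend, adjusted p = 0.995) became 0.07 without library 56. *Pbx2* and *Pbx3* had log2 fold changes of 0.18 and -0.21, and *Pknox1* and *Pknox2* of -0.30 and -0.14. None of these 4 had an unadjusted limma-trend p under 0.05, and the lowest adjusted p was 0.684, for *Pknox1*. *Pknox1* had an unadjusted p under 0.05 after quantile normalization and after median centring, at -0.31 in both (limma, adjusted p = 0.397 and 0.417).

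The zinc finger and homeobox factors carry both kinds of DNA-binding domain. Among the 7 of them none was altered and 5 had a 95% interval inside 1.5-fold (*Zeb1*, *Zeb2*, *Zfhx4*, *Zhx1* and *Zhx3*). *Zfhx3*, which codes for a very large factor known from neurons and the circadian clock, had log2 values of 5.87, 5.58, 5.52 and 5.20 in the controls and of 5.45, 5.19, 5.11 and 4.64 in the mutants. Library 53 overlapped the control range and the other 3 mutants lay below it. The log2 fold change was -0.45 (95% interval -0.88 to -0.02, limma-trend p = 0.0425, adjusted p = 0.561, exact permutation p = 0.0571), which is 1.36-fold, and -0.29 without library 56. Its unadjusted p was under 0.05 in 2 of the 8 fits that left out a library, those without 52 or 53, which gave -0.56 in both. It was also over 0.05 in 5 other alternatives (no trend, averaged title numbers, either epithelial covariate, and without libraries 55 and 56), where the log2 fold change ran from -0.45 to -0.21. *Zfhx4* did not show it, at 0.03 (95% interval -0.33 to 0.40). *Zfhx3* minus *Zfhx4* was 0.28, 0.50, 0.03 and 0.06 in the controls against -0.04, -0.14, -0.39 and -0.47 in the mutants, a mean that was lower by 0.48 in the mutants and again a description.

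*Zeb1* and *Zeb2*, repressors of epithelial genes, had log2 fold changes of 0.07 (95% interval -0.33 to 0.46) and -0.09 (95% interval -0.41 to 0.23). *Zhx1*, per kb the highest of this family, had log2 values of 5.24, 5.56, 5.68 and 5.90 in the controls and of 5.68, 5.82, 5.69 and 5.51 in the mutants. All mutant values lay inside the control range (log2 fold change 0.08, limma-trend, adjusted p = 0.998). The gene shares 10.98% of its exon bases with another transcript of its strand. *Zhx2* had a log2 fold change of -0.31 and *Zhx3* of -0.11, with limma-trend adjusted p of 0.758 and 0.995. Counted over the whole set, 5 of the 34 members (14.7%) had an unadjusted limma-trend p under 0.05, 2 of them higher and 3 lower in the mutants, against 8.38% of all genes.

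A further list held other homeobox genes of the mouse, and 27 of them were in the table. Per kb, the highest of these in the controls were *Cers2*, *Irx5* and *Cers5*, at 6.06 ± 0.22, 6.01 ± 0.41 and 4.52 ± 0.10 (SD, n = 4). *Cers2* and *Cers5* code for ceramide synthases that hold a homeobox-like domain, and *Irx5* for an Iroquois factor. *Cers2* had log2 values of 7.66, 8.06, 8.15 and 7.89 in the controls and of 8.16, 8.29, 8.17 and 8.01 in the mutants (log2 fold change 0.22, limma-trend, adjusted p = 0.841). *Irx5* had 7.92, 8.02, 7.12 and 7.56 against 7.56, 7.21, 7.32 and 6.11 (log2 fold change -0.61, limma-trend, adjusted p = 0.607), with library 56 below all others, and a log2 fold change of -0.29 without it (adjusted p = 0.767). *Cers5* had 6.28, 6.27, 6.49 and 6.35 against 6.56, 6.57, 6.54 and 6.75 (log2 fold change 0.26, limma-trend, adjusted p = 0.659). Its mutant values all lay above the controls, while *Cers2* and *Irx5* overlapped between genotypes, and none of the 3 had an unadjusted p under 0.05. Of the 27, 2 rose and 1 fell by the criterion used for the members, 11.1% against 5.77% of all genes. *Hopx*, which codes for a small homeodomain protein that does not bind DNA, had log2 values of 2.36, 1.46, 1.63 and 1.58 in the controls and of 3.01, 2.52, 3.18 and 3.50 in the mutants (log2 fold change 1.30, limma-trend p = 7.47e-04, adjusted p = 0.0635, exact permutation p = 0.0286). *Meox1*, a factor of the somites, had values of 3.02, 2.85, 3.10 and 3.03 in the controls and of 3.81, 3.91, 3.67 and 3.26 in the mutants (log2 fold change 0.66, limma-trend p = 0.00786, adjusted p = 0.235, exact permutation p = 0.0286). Both genes were higher in each mutant library than in each control. *Hlx*, a factor of visceral mesenchyme, was the gene that fell, with 2.21, 3.76, 3.15 and 3.16 in the controls against 2.82, 2.07, 2.19 and 1.98 in the mutants (log2 fold change -0.81, limma-trend p = 0.0282, adjusted p = 0.452, exact permutation p = 0.0571). Control library 49 lay among its mutant values. In the 8 fits without a library *Hopx* and *Meox1* kept an unadjusted p under 0.05, while *Hlx* did so only without library 49 or 53.

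Genes that work with the members were counted by lists in the same fit. Of 27 listed cofactors of homeodomain proteins 20 were in the table. None was altered, 1 (*Lmo2*, log2 fold change -0.58) had an unadjusted limma-trend p under 0.05, and their median log2 fold change was -0.04 beside -0.01 for all genes and -0.02 for the members. Of the 12 genes listed for the mesenchymal circuit around *Msx1* and *Pax9*, 1 was altered. It was *Sfrp2*, a secreted WNT antagonist, with log2 values of 5.01, 4.02, 4.59 and 3.67 in the controls and of 5.90, 5.20, 4.81 and 4.77 in the mutants (log2 fold change 0.85, limma-trend p = 0.0155, adjusted p = 0.334, exact permutation p = 0.114). Mutant libraries 53 and 54 lay above all controls, and libraries 55 and 56 lay inside their range. Without library 52 or 53 its unadjusted p was over 0.05, at 0.63 and 0.60.

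Marker lists of the cells that pulp can hold were summed per library. The 9 pulp mesenchyme markers summed to 9780 to 11660 CPM in the controls and 9125 to 12460 CPM in the mutants, and the 9 odontoblast markers to 62480 to 136900 CPM and 37550 to 76190 CPM. The 6 endothelial markers ran from 237 to 336 CPM and from 209 to 278 CPM. The sums of the 6 macrophage markers did not overlap, with 887 to 1108 CPM in the controls and 377 to 850 CPM in the mutants. The sum was thus lower in each mutant library, as *Lhx8* and *Tgif1* were. Taken singly, *Lyz2*, the highest of the 6, and *Ptprc* were lower in each mutant library, and *Csf1r*, *Adgre1*, *Cd68* and *C1qa* overlapped between genotypes. Besides *Klk4*, other lists also held markers that were lower in each mutant library than in each control. These were *Cd248* of the pulp mesenchyme (log2 fold change -1.28, limma-trend, adjusted p = 8.40e-04), *Col1a2* of the odontoblasts (-1.22, adjusted p = 0.316), and *Tek* and *Emcn* of the endothelium (-0.64 and -0.42). All 6 endothelial markers had a negative log2 fold change. Of the 9 pulp mesenchyme markers 5 had a positive and 4 a negative log2 fold change, and of the 9 odontoblast markers 3 and 6. By the criterion used for the members 2 pulp mesenchyme markers fell, 3 odontoblast markers fell and 1 rose, 1 endothelial marker fell and 3 macrophage markers fell. Over all genes 2.12% were higher and 3.65% lower by it. The part of these markers in the values of *Lhx8* and *Tgif1* was not tested. Of 10 Schwann cell and axon markers 4 were found, at 105 to 122 CPM and 125 to 183 CPM, and of 6 skeletal muscle markers 1, at 1.89 to 5.20 CPM and 1.47 to 3.18 CPM. The sum of the 4 Schwann cell and axon markers did not overlap either, being higher in each mutant library, as *Satb1* was. Taken singly, each of the 4 overlapped between genotypes and none was altered. Of their log2 fold changes 3 were positive and 1 was negative. The part of these markers in the values of *Satb1* was not tested either. No marker that was found was at 0 in any library.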

How the data were processed

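RNA of the 8 pulp samples was amplified by the authors from a low input, and the reads were counted per gene. The submitters' processing notes name fastp 0.21.0, HISAT2 2.1.0, featureCounts (Subread 2.0.1), limma and the build GRCm38.p5. The authors kept reliably quantifiable genes (CLEAR workflow) and transformed the counts with voom. The deposited values are therefore log2 values, taken after an offset of 0.5 reads and division by library size (log2 CPM). All 97184 values turned back into whole reads (largest distance 3.61e-08). Limits from such reads cover counting error only.

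Identifiers were matched to GENCODE M21 without their version, and 12144 of 12148 had a symbol. The genotypes were compared on all genes with limma 3.58.1 in R 4.3.3 (limma-trend: lmFit and eBayes with a trend on mean level, two-sided, 8 libraries, no covariate), and Benjamini-Hochberg adjustment covered all 12148. For single values an exact permutation test (two-sided, 70 arrangements of 4 against 4) was added, which cannot give a p under 0.0286. No source states that the libraries are separate animals, so p-values measure the spread between these samples. Sample titles carry a further number, 4, 4, 2 and 5 in libraries 49 to 52 and 3, 2, 2 and 3 in libraries 53 to 56, that no source explains. The script was tested on simulated data.

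Members and lists were chosen with earlier results of these data known. Values are given in every library for members that were altered, had an unadjusted p under 0.05, did not overlap between genotypes or were highest per kb in their family, and for the altered genes of the lists of other homeobox, cofactor and circuit genes and the 3 highest other homeobox genes. Of the marker lists, genes are given where their values moved with a member. *Msx2*, *Lhx6*, the related pairs and the keratin genes were added after their values were seen. A gene that is not reported here stayed in the fit over all genes. Alternatives were no trend, library weights, voom weights, a count offset of 2, quantile normalization, median centring, a mean log2 value of at least 3, averaged title numbers, an enamel covariate, 2-fold and each library left out. A keratin covariate and leaving out libraries 55 and 56 were added after seeing the data. Promoters of 250 bases came from RefSeq (GRCm38.p6). For *Lhx6* and *Tgif1*, which have several, the start nearest to the GENCODE gene's start was used.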

Additional observations from a re-analysis of the deposited data

Results flagged for a closer look

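In 5 of the 68 sets of 4 values (34 members in each genotype), 1 library lay further from the rest than the 95% limit of Dixon's test, and chance alone gives about 1 in 20. Control library 50 was high for *Dlx3* at a log2 value of 9.10, for *Six4* at 3.35 and for *Pknox2* at 3.02. Control library 49 was high for *Satb1* at 6.39, and it is the control closest to the mutant values of that gene. Mutant library 53 was high for *Prrx2* at 6.74, a level that control libraries 49 and 50 approached with 5.97 and 5.96.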

How the results depend on the processing

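*Lhx8* kept its direction and a p under 0.05 in all 19 alternatives, from -0.85 to -0.70 on the log2 scale, with an adjusted p from 0.0138 to 0.176 that was under 0.05 in 8 of them. The count of 3 altered members became 1, *Lhx8*, with the enamel covariate, with the keratin covariate, without libraries 55 and 56 and without library 56, and it became 1 at 2-fold, *Pitx1*. It became 2 without *Pitx1* in the fit with no trend, with voom weights, after quantile normalization and after median centring, and 2 without *Satb1* with library weights. It ran from 1 to 3 over the fits without 1 library. The 1 member with an adjusted p under 0.05 became 0 with averaged title numbers (which leave 3 control and 2 mutant values), with either covariate and without libraries 55 and 56, and the count ran from 0 to 1 over the fits without 1 library. At 2-fold the 701 altered genes became 256 and the 3 other homeobox genes 1, which were also 1 at a mean log2 value of at least 3 and ran from 2 to 6 without 1 library, lowest without library 50, 52, 54 or 56 and highest without library 53. Members over an unadjusted p of 0.05 with all 8 libraries passed it 8 times in the alternatives: *Msx2* with library weights, without library 56 and with either covariate, *Pknox1* after quantile normalization and after median centring, and *Barx1* with the keratin covariate and without libraries 55 and 56. Of 643 member values in the alternatives 64 changed sign, in 19 of the 34 members, and apart from *Pitx1* none of these members had an unadjusted p under 0.05 with all 8 libraries. Log2 fold changes that changed sign were 0.058 for *Lhx6* and 0.011 for *Cux1* with library weights, -0.023 for *Six4* with voom weights, 0.011 for *Cux1* after quantile normalization and 0.22 for *Prrx2* with averaged title numbers. With the enamel covariate they were 0.10 for *Dlx4*, 0.13 for *Lhx6*, 0.078 for *Prrx2*, 0.062 for *Meis3*, 0.018 for *Pknox2*, -0.063 for *Tgif2* and 0.025 for *Cux1*. With the keratin covariate they were 0.043 for *Dlx3*, 0.27 for *Dlx4*, 0.19 for *Lhx6*, 0.13 for *Pax9*, -0.053 for *Pitx1*, 0.51 for *Prrx2*, 0.21 for *Meis3*, 0.17 for *Pknox2*, -0.16 for *Tgif2*, 0.035 for *Cux1* and 0.023 for *Zhx3*. Without libraries 55 and 56 they were 0.22 for *Dlx4*, 0.15 for *Lhx6*, 0.076 for *Pax9*, 0.47 for *Prrx2*, 0.20 for *Meis3*, 0.14 for *Pknox2*, -0.22 for *Tgif2* and 0.0028 for *Cux1*. Over the fits without 1 library, signs changed within the ranges -0.049 to 0.31 for *Barx1*, -0.059 to 0.039 for *Cux1*, -0.31 to 0.048 for *Dlx4*, -0.050 to 0.25 for *Dlx5*, -0.10 to 0.15 for *Dlx6*, -0.11 to 0.12 for *Lhx6*, -0.23 to 0.071 for *Meis3*, -0.27 to 0.038 for *Pax9*, -0.66 to 0.23 for *Prrx2*, -0.023 to 0.56 for *Six2*, -0.22 to 0.28 for *Six4*, -0.088 to 0.17 for *Tgif2*, -0.040 to 0.20 for *Zeb1*, -0.047 to 0.12 for *Zfhx4*, -0.038 to 0.18 for *Zhx1* and -0.17 to 0.011 for *Zhx3*. The cause of these changes was not tested. Members with few reads, such as *Six2* with 17 to 88, allow only wide intervals. No paired or blocked analysis was made. The genotypes share only 1 title number, carried by control library 51 and mutant libraries 54 and 55, and its meaning is not given in the sources used here.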
